A study of Mus musculus with 48 samples.

Results

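Bile acid uptake and the FXR axis are described here by 7 genes, chosen by name from the 53465 genes of the count table and not by their values. They were Slc10a2 (ENSMUSG00000023073), Fabp6 (ENSMUSG00000020405), Slc51a (ENSMUSG00000035699), Slc51b (ENSMUSG00000053862), Nr1h4 (ENSMUSG00000047638), Fgf15 (ENSMUSG00000031073) and Nr0b2 (ENSMUSG00000037583). Conjugated bile acids are recovered in the terminal ileum, where absorptive enterocytes take them up from the lumen, carry them through the cytosol on a binding protein and export them to the portal blood. Bile acids also bind the nuclear receptor FXR, which switches on the carrier, the exporter and the hormone FGF15, and FGF15 in turn lowers bile acid synthesis in the liver. In enteroendocrine cells (EECs), the hormone-releasing cells of the gut epithelium, bile acids are best known as stimuli of GLP-1 and PYY release through the surface receptor GPBAR1 (TGR5).

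The study asked whether vertical sleeve gastrectomy (VSG) alters EECs in lean mice. EYFP-positive epithelial cells of Neurod1-cre-eYFP mice, all male, on a C57BL6 background and about 20 weeks old, were sorted 6 weeks after surgery, following an overnight fast and about 15 min after oral glucose at 3 g/kg. The Cre marks every cell with a history of Neurod1 expression, and CD45-positive and dead cells were gated out. RNA was sequenced as 48 libraries from 17 mice, 1 for each mouse and region, covering the top 5 cm of small intestine (duodenum), the bottom 15 cm (ileum) and the colon with rectum (colon). All mice carried the transgene, ate a liquid diet for 1 week around surgery and then chow. VSG mice had 70% or more of the stomach removed and received vitamin B12 each week. Sham mice had a suture placed along the line cut in VSG mice, without pressure, and ate ad libitum. Further sham mice were fed a ration that kept their weight at that of the VSG mice (weight-matched shams). In each region 6 libraries came from VSG mice, 5 from ad libitum shams and 5 from weight-matched shams. All 3 regions were present for 15 mice.

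Total counts per library were 4648651 to 17182463, with a median of 6713018. Levels are given in CPM, the count of a gene relative to the library total after TMM scaling, and every test below is edgeR's quasi-likelihood test over 15126 genes with Benjamini-Hochberg adjustment at 0.05, with log2 fold changes followed by their standard errors (SE). All 7 genes passed the filter on low counts, Fgf15 through the ileum, Nr0b2 through the duodenum and Slc10a2 through ileum and colon. All 11 EEC markers, among them Neurod1, Chga and Chgb, had counts in each region, with a summed level of 12197 to 75074 CPM in duodenum, 34858 to 84534 CPM in ileum and 29595 to 99980 CPM in colon. Single markers were not level: 0 passed as higher and 7, with Neurod1, as lower in ileum than in duodenum (median log2 fold change -0.67). In colon 1 (Chga) was higher and 8 lower than in duodenum (-1.56), and 0 were higher and 7 lower than in ileum (-0.89). Of all tested genes 33.8%, 55.0% and 49.2% passed in these comparisons, in either direction. The 13 enterocyte markers, among them Alpi, Fabp1, Apoa4 and Sis, also all had counts, and summed to 6708 to 56215 CPM in duodenum, 5693 to 20537 CPM in ileum and 824 to 1427 CPM in colon. Enterocytes are a known site of expression of genes of this set, among them Slc10a2, Fabp6, Slc51a and Slc51b. In such bulk libraries RNA from a few enterocytes and RNA made by the EECs cannot be told apart for any of the 7 genes. Nor can fewer cells of a type and less RNA per cell. One duodenum library stood apart: that of weight-matched sham mouse 27 held both the lowest sum of EEC markers (12197 CPM) and the highest of enterocyte markers (56215 CPM, against a median of 8813 CPM), so results that rest on it are given with and without it. For ad libitum sham mouse 12, the tissue labels of the ileum and colon libraries go against their description codes. The tissue labels were used, and in the library labelled colon Hoxb13, a gene of the distal colon, stood at 58.3 CPM, against 0 CPM in that labelled ileum, which had the lowest Gata4 of the ileum libraries (23.7 CPM, the others 41.1 to 79.9 CPM).

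Where an FXR-type or HNF1-type site lies close to a gene of the set is shown by the sequences before their starts. RefSeq promoter windows (GRCm38.p6) were found for 6 of the 7 genes, and the 250 bases before each start were searched for the inverted repeat GGTNANTNACC, the form bound by FXR with RXR, and for TTAATNATTAA, a core of the HNF1 site. Both motifs are palindromes and so cover both strands. The first was present before 70 of 27025 genes (0.259%) and the second before 37 (0.137%). Fabp6 held the FXR-type repeat at both -221 to -211 and -141 to -131 from its start, Slc51b held it once, at -186 to -176, and Slc10a2 held the HNF1-type repeat at -223 to -213. The windows of Slc51a, Nr1h4 and Nr0b2 held neither. For each gene of the set 1 window was searched, whereas the shares over all genes count a match in any window of a gene. The window of Nr1h4 (chr10:89506659-89506908) lies inside the gene, so the bases before its outermost start were not searched. The windows of Slc51b and Slc10a2 lie inside their genes in part, as these reach to 65422955 and 5105351. For these 2 genes the bases before the outermost start were thus searched only in part. The 3 windows with a match are printed 5′ to 3′ on the strand of the gene, with the matches in capitals, for chr11:43601563-43601812 (Fabp6), chr9:65422774-65423023 (Slc51b) and chr8:5105288-5105537 (Slc10a2), all on the minus strand.
Fabp6: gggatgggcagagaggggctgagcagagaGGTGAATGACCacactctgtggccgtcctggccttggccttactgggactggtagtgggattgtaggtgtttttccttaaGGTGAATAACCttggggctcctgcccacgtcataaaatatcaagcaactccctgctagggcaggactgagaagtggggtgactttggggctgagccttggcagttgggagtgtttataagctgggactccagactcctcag
Slc51b: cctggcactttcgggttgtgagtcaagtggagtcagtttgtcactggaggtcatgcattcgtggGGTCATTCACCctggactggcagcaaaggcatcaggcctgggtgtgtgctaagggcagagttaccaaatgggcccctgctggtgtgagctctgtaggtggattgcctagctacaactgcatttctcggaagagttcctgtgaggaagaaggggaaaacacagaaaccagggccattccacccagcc
Slc10a2: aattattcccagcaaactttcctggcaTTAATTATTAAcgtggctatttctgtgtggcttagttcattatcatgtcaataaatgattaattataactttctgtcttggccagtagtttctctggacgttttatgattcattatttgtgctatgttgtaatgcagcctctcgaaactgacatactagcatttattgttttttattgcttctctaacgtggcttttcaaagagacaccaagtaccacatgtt
A match describes these letters and does not show binding. Among 30 other bile acid genes with a window, Hnf4a alone held the FXR-type repeat and none held the HNF1-type repeat.

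The first comparison asked how the genes differ along the gut. Between ileum and duodenum all 7 genes passed the test, 6 higher in the ileum and Nr0b2 lower, where 33.8% of all tested genes passed in either direction. Fgf15, Nr0b2 and Slc10a2 had passed the filter on low counts only through regions where each is high. For Slc10a2 these were ileum and colon, with 2 to 12 counts in each duodenum library. Calls of these genes against the regions where they are low were thus favoured by the filter. They add nothing to a count set beside the share of all genes, here and below. With the stricter filter 6 genes passed, without Nr0b2. Between colon and duodenum 3 of 7 passed (Slc10a2 and Nr1h4 higher in colon, Nr0b2 lower) against 55.0% of all tested genes, and between colon and ileum 5 of 7 passed, all lower in colon, against 49.2%. The share for colon and duodenum was therefore below the background, and that for colon and ileum (5 of 7) not far above it. These 3 comparisons share their libraries.

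Slc10a2 (chr8:5083219-5105351, minus strand) encodes ASBT, the apical sodium-dependent transporter that takes bile acids up from the lumen. In the 16 duodenum libraries it lay between 0.365 and 1.51 CPM, with a median of 0.804 CPM. In the ileum it lay between 5.30 and 206 CPM with a median of 39.8 CPM, and in the colon between 6.94 and 44.0 CPM with a median of 18.9 CPM. No ileum or colon library overlapped a duodenum library, whereas ileum and colon overlapped. The mean was 0.916 ± 0.402 CPM in duodenum, 49.6 ± 49.4 CPM in ileum and 20.8 ± 10.2 CPM in colon (SD, n = 16 each). Slc10a2 was higher in ileum than in duodenum (log2 fold change 5.75, SE 0.45, adjusted p = 1.36e-13 by edgeR) and higher in colon than in duodenum (4.49, SE 0.44, adjusted p = 1.46e-11 by edgeR), in 15 of 15 mice for both. It was lower in colon than in ileum (-1.26, SE 0.34, adjusted p = 0.00179 by edgeR), in 13 of 16 mice.

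Fabp6 (chr11:43596049-43601540, minus strand), the ileal bile acid-binding protein that carries bile acids through the cytosol, had the highest level of the set in the ileum. The 16 ileum libraries ran from 32.1 to 848 CPM with a median of 137 CPM. The 16 duodenum libraries ran from 0.300 to 17.6 CPM with a median of 1.64 CPM, and the 16 colon libraries from 0.122 to 6.35 CPM with a median of 1.65 CPM. The ileum overlapped neither of the other regions, which overlapped each other. Fabp6 was higher in ileum than in duodenum (log2 fold change 6.41, SE 0.50, adjusted p = 1.23e-13 by edgeR; 15 of 15 mice) and lower in colon than in ileum (-6.93, SE 0.52, adjusted p = 1.08e-14 by edgeR; 16 of 16 mice). The difference of colon from duodenum did not pass (-0.52, SE 0.58, adjusted p = 0.469 by edgeR). In the duodenum, the 4 libraries with index D501, the index also used for 7 ileum libraries, held 1.45 to 17.6 CPM of Fabp6 and the 12 with index D502, used for no other region, 0.300 to 4.58 CPM. The part of the index in these values was not tested.

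**Figure D1:**
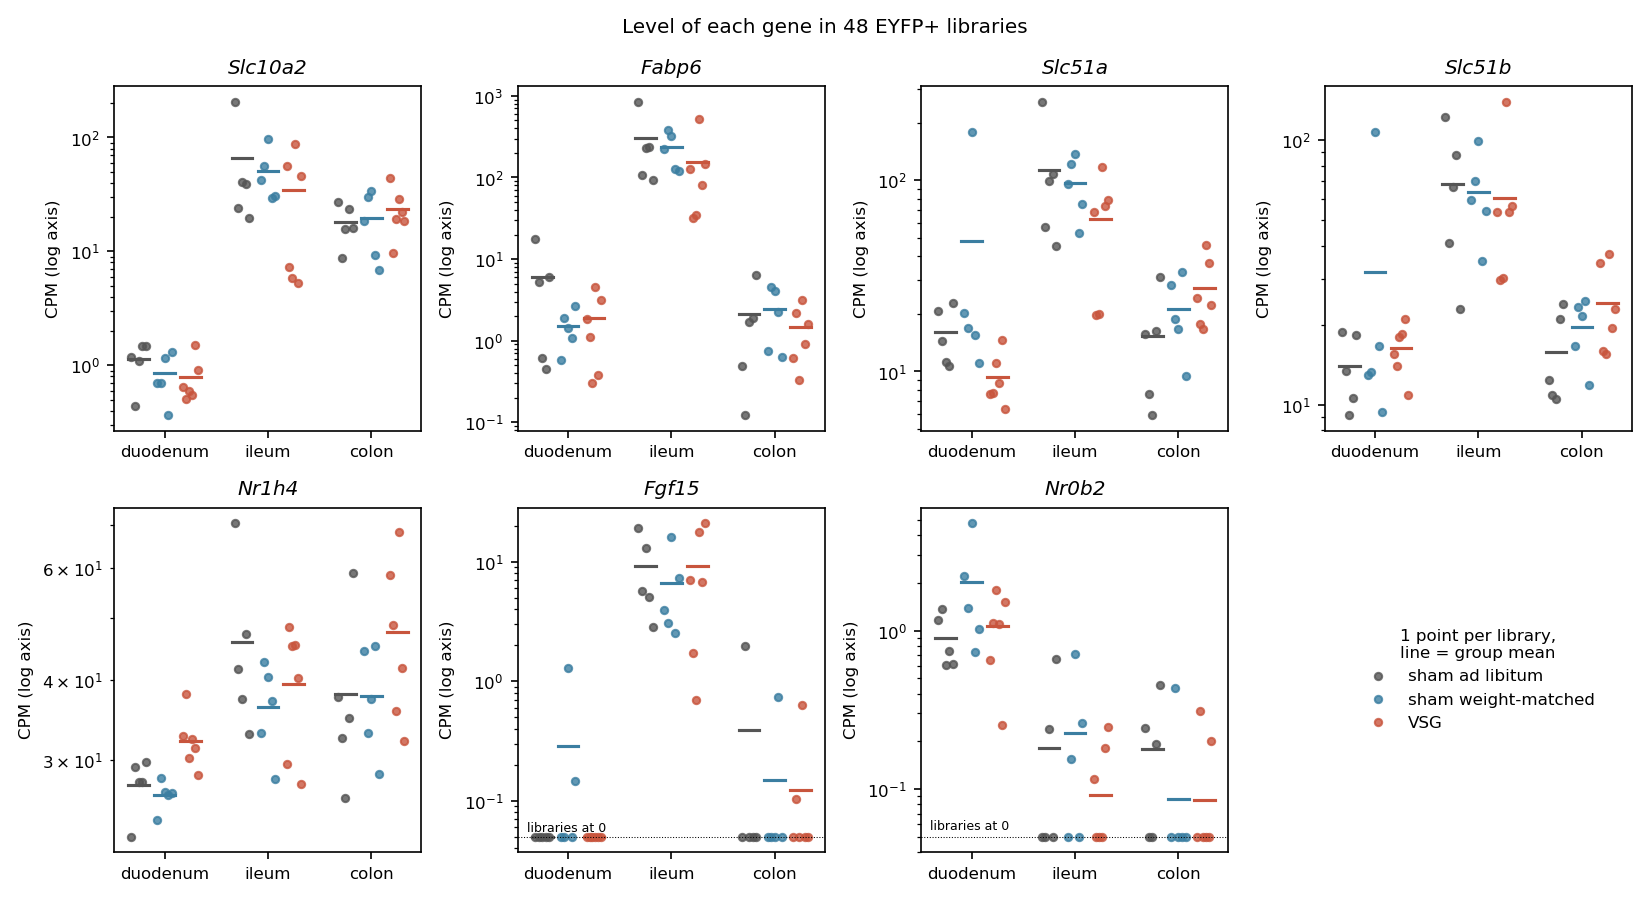
Level of each of the 7 genes (CPM, log axis) in duodenum, ileum and colon, with 1 point per library coloured by surgery group and a line at each group mean. Fabp6 of the 16 ileum libraries lies at 32.1 to 848 CPM, above every duodenum and colon library, Slc10a2 is above the duodenum in all ileum and colon libraries, and libraries with 0 counts of Fgf15 or Nr0b2 sit on the dotted line.

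The uptake transporter and the carrier were both high in the ileum but not in the colon, where Slc10a2 stood at 20.8 ± 10.2 CPM and Fabp6 at 1.97 ± 1.76 CPM (SD, n = 16). On the log2 scale (CPM plus a small constant), Fabp6 minus Slc10a2 was 0.79 ± 1.31 in duodenum, 2.26 ± 0.58 in ileum and -3.26 ± 1.11 in colon (SD, n = 16 each). The constant weighs on values near 1 CPM, as of Fabp6 in colon and of both genes in duodenum. The colon value was lower than the ileum value in 16 of 16 mice, by 5.52 ± 1.22 (SD, n = 16; exact two-sided sign-flip permutation test over mice, p = 3.05e-05, the smallest p it can give, 0.000105 after Benjamini-Hochberg adjustment over 24 such tests). It was lower than the duodenum value in 15 of 15 mice (exact sign-flip permutation test, p = 6.1e-05, the smallest p it can give, adjusted 0.000105). This difference was tested after the levels had been seen.

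**Figure D2:**
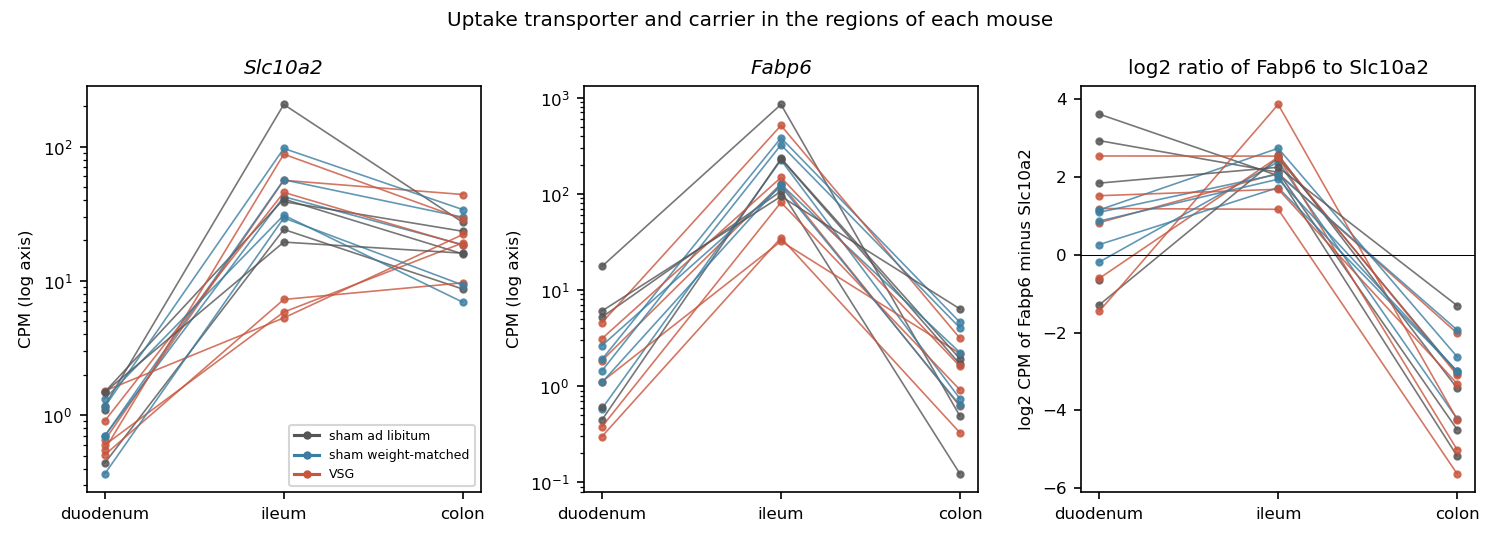
Slc10a2 and Fabp6 (CPM, log axis) and the difference of their log2 CPM in the 3 regions, with 1 line per mouse coloured by surgery group. Both genes peak in the ileum in most mice, and in the colon Slc10a2 stays between 6.94 and 44.0 CPM while Fabp6 falls to between 0.122 and 6.35 CPM, so that the difference is lower in colon than in ileum in 16 of 16 mice.

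Slc51a (chr16:32474504-32487879) and Slc51b (chr9:65412714-65422955), both on the minus strand, encode OSTα and OSTβ, which are only active together as the basolateral exporter of bile acids. Slc51a ran from 6.35 to 178 CPM in duodenum (median 12.8 CPM), from 19.7 to 257 CPM in ileum (median 77.3 CPM) and from 5.90 to 45.9 CPM in colon (median 18.3 CPM). Slc51b ran from 9.12 to 107 CPM in duodenum (median 14.8 CPM), from 23.0 to 140 CPM in ileum (median 55.2 CPM) and from 10.5 to 37.1 CPM in colon (median 20.3 CPM). The highest duodenum value of both subunits was that of mouse 27, and both genes overlapped between all pairs of regions. Without that library the duodenum reached 22.8 CPM for Slc51a and 21.1 CPM for Slc51b. Slc51b of duodenum and ileum then no longer overlapped, whereas Slc51a did. Both genes also passed between ileum and duodenum without that library. Both were higher in ileum than in duodenum, Slc51a with a log2 fold change of 2.19 (SE 0.33, adjusted p = 1.39e-06 by edgeR) and Slc51b with 1.72 (SE 0.27, adjusted p = 3.06e-06 by edgeR), in 14 of 15 mice each. With the library index as a covariate neither passed (0.73, adjusted p = 0.403, and 0.52, adjusted p = 0.488, both by edgeR). Both were lower in colon than in ileum, by log2 fold changes of -2.10 (SE 0.33, adjusted p = 1.16e-06 by edgeR; 16 of 16 mice) and -1.72 (SE 0.28, adjusted p = 1.44e-06 by edgeR; 15 of 16 mice). Colon and duodenum did not differ past the threshold for Slc51a (0.09, SE 0.33, adjusted p = 0.846 by edgeR) or Slc51b (0.00, SE 0.27, adjusted p = 0.992 by edgeR). On the log2 scale Slc51a minus Slc51b was higher in ileum than in duodenum by 0.55 ± 0.45 (SD, n = 15), in 14 of 15 mice (exact two-sided sign-flip permutation test, p = 0.000427, adjusted 0.00054). Without the duodenum library of mouse 27, Slc51a was higher in colon than in duodenum (0.63, adjusted p = 0.045 by edgeR). Slc51a shares 567 exonic bases with Pcyt1a on the opposite strand, a gene with 23662 counts over all libraries, and whether the counting used the strand of the reads is not given in the sources used here, so its counts are uncertain. Slc51b shares 91 such bases with Rasl12, which had 70 counts.

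Nr1h4 (chr10:89454234-89533585, minus strand) encodes FXR, the bile acid receptor of the nucleus, and it varied least among the 7 genes. It ran from 22.7 to 38.1 CPM in duodenum (median 28.2 CPM), from 27.5 to 70.4 CPM in ileum (median 40.3 CPM) and from 26.1 to 68.1 CPM in colon (median 37.5 CPM). All 3 ranges overlapped. Nr1h4 was higher in ileum (log2 fold change 0.50, SE 0.11, adjusted p = 0.000246 by edgeR; 13 of 15 mice) and in colon (0.51, SE 0.11, adjusted p = 6.75e-05 by edgeR; 14 of 15 mice) than in duodenum. Colon and ileum did not differ past the threshold (0.01, SE 0.11, adjusted p = 0.932 by edgeR). The receptor was therefore present in each region with means that differed by 1.40-fold (ileum) and 1.44-fold (colon) from the duodenum, while Fabp6 moved by 74.1-fold between ileum and duodenum.

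Fgf15 (chr7:144896531-144900953, plus strand), the FXR target hormone of the ileum, had 789 counts over the 16 ileum libraries and was counted in 16 of 16 of them, from 0.697 to 21.1 CPM with a median of 6.26 CPM. In the duodenum it had 10 counts in all, 9 of them in the library of mouse 27, and 14 of 16 libraries were at 0. In the colon it had 24 counts in all, 16 of them in ad libitum sham mouse 13, and 12 of 16 libraries were at 0. Over the pooled libraries this gave 7.55 CPM in ileum (95% exact Poisson interval 7.03 to 8.10), 0.0723 CPM in duodenum (0.0346 to 0.133) and 0.226 CPM in colon (0.145 to 0.337), intervals that cover counting error only. In both the ad libitum sham and the VSG duodenum, 0 counts allow a pooled level of up to 0.0603 and 0.0590 CPM (3 counts per group). Fgf15 was higher in ileum than in duodenum in 15 of 15 mice (adjusted p = 1.97e-09 by edgeR) and lower in colon than in ileum in 16 of 16 (log2 fold change -5.36, SE 0.67, adjusted p = 1.98e-08 by edgeR). The difference of colon from duodenum did not pass (adjusted p = 0.072 by edgeR) and passed without the duodenum library of mouse 27 (adjusted p = 0.0198 by edgeR). Antisense genes share exons with Fgf15 and had 15 and 1 counts.

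Nr0b2 (chr4:133553376-133556536, plus strand) encodes SHP, a repressor that FXR induces, and was the 1 gene of the set with its highest level in the duodenum. There it had 181 counts and was counted in 16 of 16 libraries, from 0.252 to 4.77 CPM with a median of 1.11 CPM. The ileum had 15 counts in 8 of 16 libraries and the colon 12 counts in 6 of 16. The pooled level was 1.31 CPM in duodenum (95% exact Poisson interval 1.12 to 1.51), 0.144 CPM in ileum (0.0804 to 0.237) and 0.113 CPM in colon (0.0584 to 0.198). Nr0b2 was lower in ileum (log2 fold change -3.01, SE 0.54, adjusted p = 1.26e-05 by edgeR; 14 of 15 mice) and in colon (-3.31, SE 0.54, adjusted p = 9.74e-07 by edgeR; 15 of 15 mice) than in duodenum. Colon and ileum did not differ past the threshold (-0.30, SE 0.71, adjusted p = 0.761 by edgeR). The highest duodenum value, 4.77 CPM, again belonged to mouse 27, and without that library the log2 fold change of ileum from duodenum was -2.82 (adjusted p = 3.81e-05 by edgeR).

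To compare the genes with each other, levels were divided by exon length. In the ileum, the mean level per kb was 473 CPM per kb for Fabp6, 90.2 for Slc51b, 27.8 for Slc51a, 17.6 for Nr1h4, 11.9 for Slc10a2, 2.75 for Fgf15 and 0.142 for Nr0b2. In the duodenum, Slc51b was highest (28.9 CPM per kb), followed by Nr1h4 (12.5), Slc51a (7.37), Fabp6 (6.38), Nr0b2 (1.16), Slc10a2 (0.221) and Fgf15 (0.0296). Without mouse 27 the duodenum means were 20.7 CPM per kb for Slc51b, 12.6 for Nr1h4, 6.61 for Fabp6, 4.16 for Slc51a, 0.961 for Nr0b2, 0.217 for Slc10a2 and 0.00320 for Fgf15, so that Slc51a came after Fabp6. In the colon the order was Slc51b (28.5), Nr1h4 (18.01), Slc51a (6.77), Slc10a2 (5.003), Fabp6 (4.12), Nr0b2 (0.101) and Fgf15 (0.0702). The library ranges of Slc10a2 and Nr1h4 in ileum overlapped, as did those of neighbouring genes elsewhere in these orders.

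Part of the regional order was also seen within a library index. The indices D501 to D504 of the library names follow the regions in part: the 16 duodenum libraries held D501 or D502, and 11 of 16 colon libraries held D504. Within D501, the 7 ileum libraries lay above the 4 duodenum libraries for Slc10a2 (5.86 to 87.9 against 0.439 to 1.48 CPM), Fabp6 (32.1 to 513 against 1.45 to 17.6 CPM) and Nr1h4 (32.9 to 48.4 against 22.7 to 29.8 CPM), whereas Slc51a (19.7 to 121 against 14.5 to 178 CPM), Slc51b (23.0 to 140 against 13.4 to 107 CPM) and Fgf15 overlapped. The overlap of Slc51b and Fgf15 came from the duodenum library of mouse 27 alone. The other D501 duodenum libraries held at most 18.8 CPM of Slc51b and 0 CPM of Fgf15. Slc51a overlapped without mouse 27 as well. Within D503, the 8 ileum libraries lay above the 4 colon libraries for Fabp6 (81.4 to 323 against 0.616 to 6.35 CPM), Slc51a (53.2 to 137 against 9.46 to 31.05 CPM) and Slc51b (35.1 to 99.7 against 11.9 to 34.5 CPM), and overlapped for Slc10a2. With the index as a covariate, 3 of 7 genes passed between ileum and duodenum (Fabp6, Slc10a2 and Nr0b2), where 11.3% of all tested genes then passed. Of the 4 genes that no longer passed, Nr1h4 (log2 fold change 0.57, SE 0.21, adjusted p = 0.074 by edgeR) had a fold like that without the covariate and an SE of 0.21 in place of 0.11. Slc51a (0.73, SE 0.50) and Slc51b (0.52, SE 0.42) had smaller folds as well as larger SEs. Fgf15 did not pass either (adjusted p = 0.0857 by edgeR, SE 1.65 in place of 0.80). Between colon and duodenum, where 1 colon library had an index in common with the duodenum, Slc51a and Slc51b were lower in colon in that fit (-1.64, adjusted p = 0.028, and -1.32, adjusted p = 0.0376, both by edgeR). Index and region cannot be told apart for most duodenum libraries.

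Most enterocyte markers moved between the regions in a different way. Of the 13, 4 were higher and 3 lower in ileum than in duodenum, with a median log2 fold change of -0.16, while Slc10a2, Fabp6, Slc51a and Slc51b were all higher in ileum. Relative to the summed enterocyte markers, each of these 4 genes was higher in ileum than in duodenum in 15 of 15 mice, by 4.34 ± 1.73 for Slc10a2, 5.69 ± 1.45 for Fabp6, 1.95 ± 0.57 for Slc51a and 1.40 ± 0.44 for Slc51b on the log2 scale (SD, n = 15). In the colon 12 of the 13 markers were lower than in duodenum, with a median of -4.86, while Slc10a2 was higher there and Slc51a and Slc51b did not differ past the threshold. The remaining marker, Mep1a, moved like Slc10a2, with log2 fold changes of 1.91 (SE 0.21) in colon and 2.09 (SE 0.21) in ileum from duodenum. Colonocyte markers (Car1, Car4, Slc26a3 and Aqp8) summed to 448 to 1678 CPM in colon, against 20.6 to 164 CPM in duodenum. With the enterocyte marker score of each library, centred within region, as a covariate, the 7 genes that passed between ileum and duodenum and the 5 that passed between colon and ileum passed again. A score centred in this way has the same mean in each region. It therefore cannot adjust for enterocyte content that differs between regions, and nothing is concluded from this fit about such a difference.

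Within the ileum, the transporters and the carrier varied together from library to library. Across the 16 ileum libraries, Pearson's r on the log2 scale was 0.913 for Slc10a2 and Fabp6 (Spearman's rho 0.918), 0.954 for Fabp6 and Slc51a (rho 0.938) and 0.868 for Slc51a and Slc51b (rho 0.965). Fgf15 had an r of 0.701 with Fabp6. Nr1h4, in contrast, had an r of 0.142 with Slc10a2 and 0.296 with Fabp6, and Nr0b2 had 0.038 with Fabp6 at 15 counts in all. These values describe libraries that share cell sorting, depth and cell makeup, and no test was made. In the same libraries the enterocyte list mean had an r of 0.390 with Slc10a2, 0.574 with Fabp6, 0.637 with Slc51a and 0.521 with Slc51b. The EEC list mean had an r of -0.433, -0.533, -0.588 and -0.362 with these genes. The part of cell makeup in the shared variation was not tested. The library of mouse 12 was the highest for Slc10a2, Fabp6 and Slc51a, and without it the r of Slc10a2 and Fabp6 was 0.885. With the means of the surgery groups removed it was 0.895. In the 16 colon libraries r was 0.226 for Slc10a2 and Fabp6, and in the 16 duodenum libraries 0.016, where both genes had few counts.

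**Figure D3:**
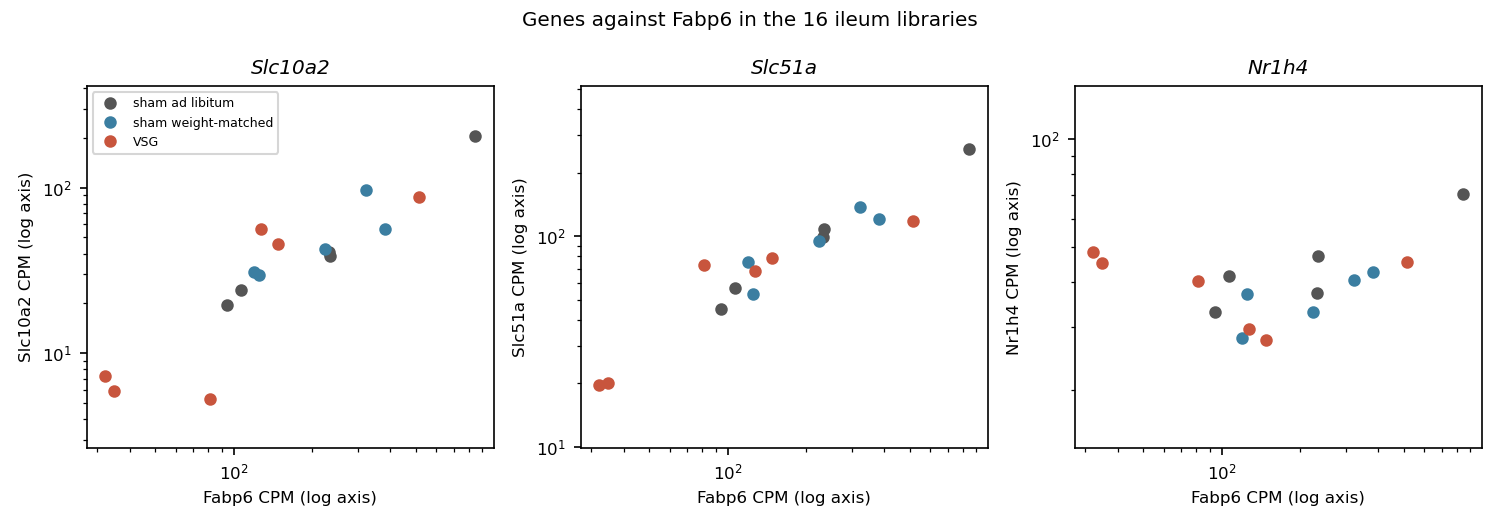
Slc10a2, Slc51a and Nr1h4 against Fabp6 (CPM, log axes) in the 16 ileum libraries, with 1 point per library coloured by surgery group. Slc10a2 and Slc51a climb with Fabp6 from the lowest libraries to mouse 12 at 848 CPM of Fabp6 (r = 0.913 and 0.954), whereas Nr1h4 shows no such order (r = 0.296).

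Among 13606 other tested genes with a mean of at least 1 CPM in ileum, those with the pattern most like each gene over the 48 libraries were, for Slc10a2, Tmigd1 (r = 0.941), Prss23 (0.933) and Mep1a (0.928), a gene of the enterocyte list. For Fabp6 they were Naaladl1 (0.912), Nts (0.901), which encodes the gut hormone neurotensin, and Ocm (0.892), and for Fgf15 Naaladl1 (0.931), Defa22 (0.889) and Ocm (0.869). Slc51a and Slc51b had the same 3 nearest genes, Prr15, Clec2h and Pdlim2, at 0.896 to 0.917. The nearest genes of Nr1h4 were less alike, with Tjp3 at 0.688, Cyp4f40 at 0.687 and Fgfbp1 at 0.675. These values take in differences between regions as well as within them, and the part of each was not tested. Within the ileum, with surgery group means removed, Tmigd1 was the nearest gene of both Slc10a2 (0.948) and Fabp6 (0.945), and Sgk2 (0.965) that of Slc51a.

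The other bile acid genes were taken as a list of 40, of which 34 were tested. Between ileum and duodenum 11 were higher and 4 lower in ileum, with a median log2 fold change of 0.15. The higher genes of lowest p were Nr5a2 (1.25, SE 0.11), encoding the nuclear receptor LRH-1, Malrd1 (0.73, SE 0.09), a gene that acts on Fgf15 output, and Gpbar1 (3.00, SE 0.41), the surface bile acid receptor. The lower genes were Gata4 (-1.21, SE 0.16), a factor of the proximal intestine known to hold down Slc10a2 there, Cyp3a11 (-2.39, SE 0.37), Ppara (-0.52, SE 0.12) and Klb (-0.51, SE 0.17). Between colon and duodenum 9 were higher and 17 lower in colon, led by Nr5a2 (2.09), Klb (1.56), the FGF receptor partner β-Klotho, and Fgfr4 (1.05) on the higher side and by Gata4 (-7.26), Malrd1 (-1.61) and Abcc2 (-5.69), an apical export pump, on the lower side. Between colon and ileum 4 were higher and 20 lower in colon, led by Klb (2.07), Nr5a2 (0.84) and Abcc3 (0.62), a basolateral export pump, and by Malrd1 (-2.34), Gata4 (-6.05) and Abcc2 (-5.34). These counts stand beside the 33.8%, 55.0% and 49.2% of all tested genes given above. In the surgery comparisons described next, 0 of the 34 passed.

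The second comparison asked whether VSG, or the matched loss of weight, moved these genes. Of the 7 genes, 0 passed by edgeR for any pair of the 3 surgery groups, whether the regions were averaged or taken singly. Over all genes, the comparison of VSG with the ad libitum shams called 0% on average and in each region. Between VSG and weight-matched sham mice 0.245% passed on average, 0.225% in duodenum, 0.0463% in ileum and 0.0595% in colon. Between the sham groups 0.0529% passed on average, 0% in duodenum and ileum and 0.0132% in colon. At an unadjusted p under 0.05, 0 of the 7 passed on average for VSG against the ad libitum shams and 2 of 7 (Slc51a and Nr1h4) for VSG against the weight-matched shams, beside 837 and 1500 of 15126 genes. In the duodenum 1 of 7 (Fabp6), 3 of 7 (Slc51a, Slc51b and Fgf15) and, between the shams, 4 of 7 (these 3 and Fabp6) did so, beside 370, 1318 and 990 of all genes. In ileum and colon 0 of 7 did so in any pair, beside 552 to 1188 of all genes. In the duodenum the library index also followed the surgery groups in part. Every VSG library there held D502, while ad libitum shams 12, 32 and 13 and weight-matched sham 27 held D501. Fabp6 of the ad libitum sham duodenum was 17.6, 6.05 and 5.22 CPM with D501 and 0.447 and 0.608 CPM with D502. Index and surgery group cannot be fully told apart in that region. DESeq2 gave 26 and 102 adjusted calls over all genes in the averages of VSG against each sham group, and 0 among the 7. For VSG against the ad libitum shams it gave 0 in duodenum, 5 in ileum and 0 in colon. For VSG against the weight-matched shams in duodenum it gave 216 calls over all genes and 1 among the 7, Slc51a (adjusted p = 0.00482 by DESeq2). The comparisons share control groups, and none of the 9 differences of a surgery effect between regions passed for any of the 7 genes. The lowest adjusted p was 0.518 (edgeR), for Slc51a between colon and duodenum.

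In the ileum, where most of these genes were highest, the spread between mice was larger than the differences between groups. Slc10a2 was 19.5, 24.2, 38.89, 40.7 and 206 CPM in the 5 ad libitum sham libraries and 29.5, 30.9, 42.4, 56.6 and 97.0 CPM in the 5 weight-matched sham ones. The 6 VSG libraries ran from 5.30 to 87.9 CPM with a median of 26.5 CPM, and 3 of them (5.30, 5.86 and 7.28 CPM) lay below all sham libraries while the other 3 lay among them. Of these 3, mice 18 and 22 had the highest EEC marker sums of the ileum libraries (84534 and 63325 CPM, against a median of 44278 CPM) and low enterocyte sums (5693 and 7987 CPM, against a median of 14610 CPM), whereas mouse 28 had 38280 and 15467 CPM. The part of these markers in the low values was not tested. The log2 fold change of VSG was -0.95 (SE 0.56, adjusted p = 0.888 by edgeR) from ad libitum shams and -0.58 (SE 0.56, adjusted p = 0.942 by edgeR) from weight-matched shams, and the first was 0.15 without the libraries of mouse 12.

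Fabp6 in the ileum was 94.0, 107, 231, 234 and 848 CPM in ad libitum shams and 120, 125, 224, 323 and 381 CPM in weight-matched sham mice. The VSG libraries ran from 32.1 to 513 CPM with a median of 104 CPM, so that the groups overlapped. The log2 fold change of VSG was -0.97 (SE 0.62, adjusted p = 0.91 by edgeR) from ad libitum shams and -0.60 (SE 0.62, adjusted p = 0.959 by edgeR) from weight-matched sham mice. Slc51a gave -0.86 (SE 0.54, adjusted p = 0.898 by edgeR) and -0.63 (SE 0.54, adjusted p = 0.931 by edgeR), and Slc51b -0.19 (SE 0.45) and -0.09 (SE 0.45). Fgf15 averaged 9.23 ± 6.84 CPM in ad libitum sham (n = 5), 6.59 ± 5.60 CPM in weight-matched sham (n = 5) and 9.20 ± 8.41 CPM in VSG mice (n = 6; SD), with VSG log2 fold changes of -0.04 (SE 0.81) and 0.45 (SE 0.82). With standard errors of this size, 2-fold differences in the ileum were not detectable after adjustment for the transporters, the carrier or Fgf15. Without mouse 12 the log2 fold change of VSG from ad libitum shams was -0.10 for Fabp6 and -0.31 for Slc51a.

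**Figure D4:**
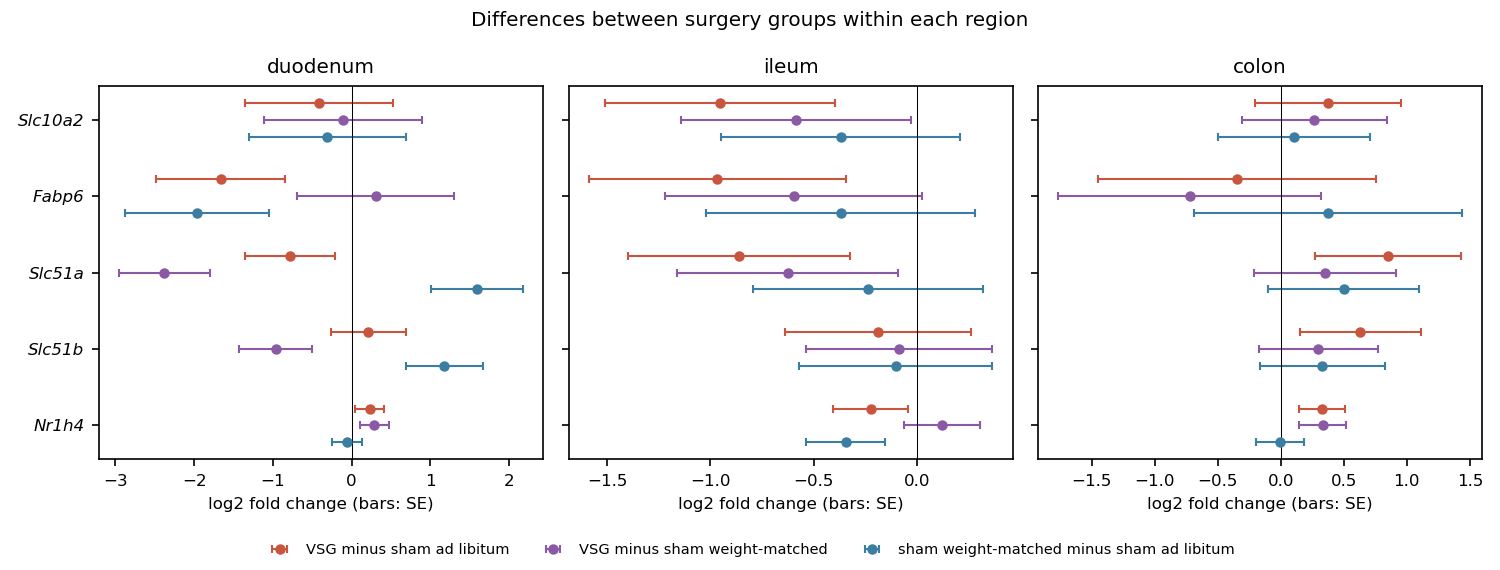
Log2 fold changes between surgery groups within each region for Slc10a2, Fabp6, Slc51a, Slc51b and Nr1h4, with bars of 1 SE and horizontal axes that differ between panels. In this edgeR fit none passed after adjustment (Slc51a between VSG and weight-matched sham duodenum passed with DESeq2), and the bars are widest for Slc10a2 and Fabp6, where reads were few or mice spread most.

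Nr1h4 had the smallest standard errors. In the duodenum it was 22.7, 27.7, 27.7, 29.2 and 29.8 CPM in ad libitum sham, 24.2, 26.5, 26.6, 26.7 and 28.1 CPM in weight-matched sham and 28.4 to 38.1 CPM (median 31.8 CPM) in VSG mice. The VSG libraries all lay above the weight-matched sham ones and overlapped the ad libitum sham ones. The log2 fold change of VSG from weight-matched sham mice in the duodenum was 0.29 (SE 0.18, adjusted p = 0.794 by edgeR). Averaged over the regions it was 0.25 (SE 0.11, unadjusted p = 0.0249, adjusted p = 0.417 by edgeR), and from ad libitum sham mice it was 0.11 (SE 0.11, adjusted p = 0.998 by edgeR). Both averages take the libraries of 1 mouse as independent.

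In the duodenum the call of Slc51a differed between the fits. By edgeR it did not pass between VSG and weight-matched sham mice, with a log2 fold change of -2.38 (SE 0.57, adjusted p = 0.0532 by edgeR). It passed with DESeq2 (adjusted p = 0.00482), with DESeq2's size factors in edgeR (0.0454), with the stricter filter (0.0437) and without mouse 16, 21, 29, 31 or 32 (0.0182 to 0.0493), and not in the other alternatives, where the adjusted p ran up to 1. Slc51a was 11.02, 15.5, 16.9, 20.2 and 178 CPM in weight-matched sham and 10.7, 11.2, 14.5, 20.8 and 22.8 CPM in ad libitum sham mice. The 6 VSG libraries ran from 6.35 to 14.5 CPM with a median of 8.21 CPM. The 178 CPM were those of mouse 27, whose Slc51b was 107 CPM where the other weight-matched sham mice had 9.40, 12.97, 13.3 and 16.6 CPM. Without that library the log2 fold change of Slc51a was -0.79 (adjusted p = 1 by edgeR), and that of Slc51b went from -0.96 (SE 0.46, adjusted p = 0.539 by edgeR) to 0.32 (adjusted p = 1). The same library held the highest sums of enterocyte (56215 CPM), Paneth (4049 CPM, against a duodenum median of 295 CPM), goblet (5944 CPM) and immune (48.3 CPM) markers of the 16 duodenum libraries. Across these 16 libraries the enterocyte list mean had an r of 0.949 with Slc51a and 0.839 with Slc51b, and without mouse 27 of 0.786 and 0.267. With the enterocyte marker score as a covariate no gene of the set passed in the duodenum either.

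**Figure D5:**
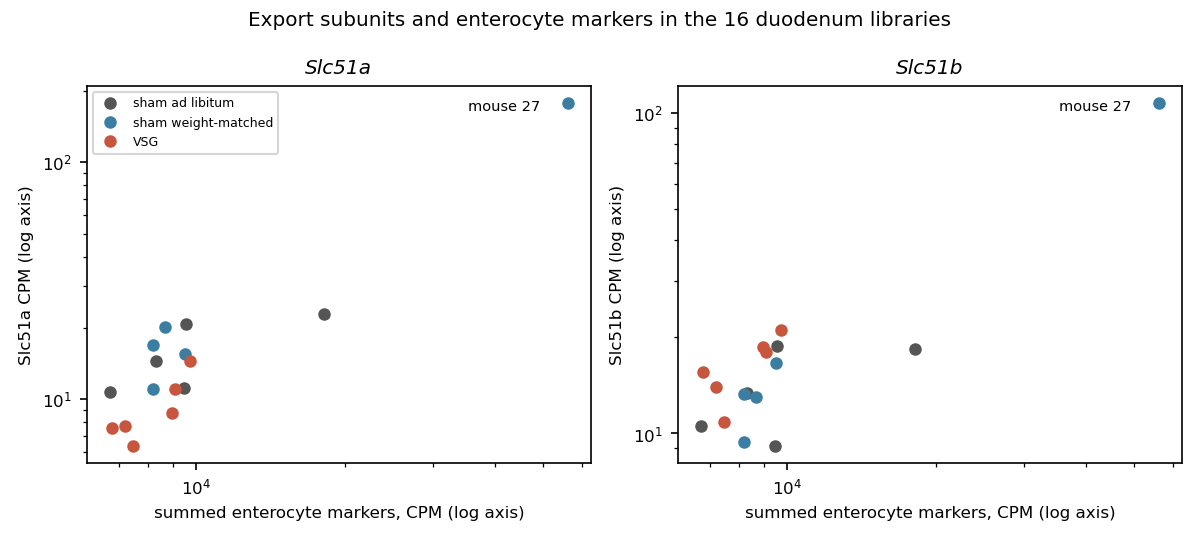
Slc51a and Slc51b against the summed enterocyte markers (CPM, log axes) in the 16 duodenum libraries, coloured by surgery group. Mouse 27 sits apart in both panels at 56215 CPM of enterocyte markers, with 178 CPM of Slc51a and 107 CPM of Slc51b, while the other 15 libraries hold 6.35 to 22.8 CPM of Slc51a.

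In the colon Slc10a2 averaged 18.3 ± 7.24 CPM in ad libitum sham (n = 5), 19.7 ± 12.0 CPM in weight-matched sham (n = 5) and 23.7 ± 11.7 CPM in VSG mice (n = 6; SD), and the groups overlapped. Slc51a averaged 15.3 ± 9.96, 21.2 ± 9.39 and 27.3 ± 11.6 CPM in the same order, with a log2 fold change of VSG from ad libitum sham mice of 0.85 (SE 0.58, adjusted p = 0.806 by edgeR). Slc51b averaged 15.8 ± 6.30, 19.7 ± 5.35 and 24.2 ± 9.39 CPM (0.63, SE 0.48, adjusted p = 0.822 by edgeR). In the same order, the colonocyte markers averaged 851, 1270 and 1287 CPM and the EEC markers 63014, 50018 and 48561 CPM. Across the 16 colon libraries the EEC list mean had an r of -0.613 with Slc51a and -0.669 with Slc51b, and the part of cell makeup in these values was not tested. Nr0b2 was too sparse in ileum and colon, at 3 to 8 counts per surgery group, for a difference between groups to be detectable.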

How the data were processed

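EYFP-positive cells from 3 gut regions of operated and sham mice gave 48 libraries (single-end reads of 50 bases, 2 ng of RNA, a stranded pico-input kit). The authors deposited raw read counts per Ensembl gene (release 91), made with STAR 2.5.1 on GRCm38. The strand setting is not given in the sources used here. Of 53465 genes, 53360 were matched by identifier to GENCODE M21. Groups came from the condition and tissue labels, and mice from the description codes. The human samples, peptidomics and hormone data were not analysed here.

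Genes were filtered with filterByExpr over 9 groups (surgery by region), scaled by TMM and tested in edgeR 4.0.16 (R 4.3.3) with a robust quasi-likelihood fit of 9 group means and contrasts averaged over the other factor or within a region, adjusted over 15126 genes. Each standard error is |log2 fold change| over √F. The fit was checked on simulated counts. The authors used DESeq2 with surgery in interaction with region, and DESeq2 1.42.0 was run as an alternative, beside a voom fit in limma 3.58.1 that took each mouse as random replicate block, other filters and size factors, library index or enterocyte score as a covariate, and omission of libraries or mice. The members, lists and tests were chosen with earlier results of these data known. The tests of log2 differences between genes over mice, and the duodenum levels per kb without mouse 27, were added after seeing the data. Those log2 differences, and the ones relative to summed enterocyte markers, used CPM plus a small constant. Genes other than the members are named by p within the pathway list (up to 3 per direction and region contrast), by r, as markers, or, for Klb in ileum against duodenum and the region gene Hoxb13, after their values were seen.

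The mouse number pairs libraries of 1 animal across regions: same-mouse deviations from group means had a median correlation across genes of 0.0640 (duodenum and ileum, 15 pairs), 0.0641 (duodenum and colon, 15 pairs) and 0.0632 (ileum and colon, 16 pairs), and voom estimated 0.1278. Between surgery groups no mouse is shared, so nothing is paired there. Within 1 region the groups compared hold different mice. The spread of each gene was nevertheless estimated from the libraries of all 3 regions together, with those of 1 mouse taken as independent. Within-region p-values therefore do not measure the spread between mice of that region alone. In averages over regions the main fit also took the libraries of 1 mouse as independent, so those p-values do not measure the spread between mice alone. For VSG against weight-matched sham mice on average it called 37 genes, against 11 with the mouse as random block. Poisson intervals and limits from 3 counts cover counting error only. Correlations use log2 CPM with a prior count of 2.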

Additional observations from a re-analysis of the deposited data

Results flagged for a closer look

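In each of the 9 groups the highest and lowest library was compared with the others by Dixon's ratio, for 61 combinations of gene and group, of which about 1 in 20 is flagged by chance and 9 were flagged. Mouse 27 stood apart in the weight-matched sham duodenum for Slc51a (ratio 0.784, 178 CPM against 11.02 to 20.2 CPM), Slc51b (0.769, 107 CPM against 9.40 to 16.6 CPM) and Fgf15 (0.755, 9 counts against at most 1). In the ad libitum sham duodenum, Nr1h4 was lowest in mouse 12 (0.732, 22.7 CPM against 27.7 to 29.8 CPM) and Slc10a2 lowest in mouse 13 (0.72, 8 counts).

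Sparse counts set the other flags. Fgf15 was counted in 1 colon library each of ad libitum sham mouse 13 (ratio 1, 16 counts, the others at 0) and weight-matched sham mouse 29 (ratio 1, 4 counts), and most in VSG colon of mouse 25 (0.73, 3 counts). Nr0b2 had 3 counts in the colon of weight-matched sham mouse 21 and 0 in the others of its group (ratio 1). No difference of a surgery effect between regions passed the threshold for the 7 genes.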

How the results depend on the processing

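Of 518 recounts of genes called, 507 stayed within 1.5 times the main count. Between ileum and duodenum 3 of 7 genes passed in place of 7 with the library index as a covariate. Between colon and duodenum 5 passed in place of 3 without the duodenum library of mouse 27, and leaving out each mouse gave 2 to 5. Between VSG and weight-matched sham duodenum Slc51a, 1 gene, passed in place of 0 with DESeq2 (adjusted p = 0.00482), DESeq2's size factors (0.0454) or the stricter filter (0.0437), and leaving out each mouse gave 0 to 1 (1 without mouse 16, 21, 29, 31 or 32, and 0 without mouse 27). With the mouse as a replicate block the counts were 7 between ileum and duodenum, 3 (random block) and 4 (fixed block, Fgf15 added) between colon and duodenum, 5 between colon and ileum and 0 for every surgery comparison, so that the block lost no call. The fixed block could not be fitted for the surgery comparisons, since no mouse has more than 1 surgery.

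Of 872 recomputed log2 fold changes of single genes, 824 kept direction and call and 34 changed sign, each from a value that had not passed. Between colon and duodenum, Slc51a became -1.64 with the index covariate and ran from -0.059 to 0.65 over omitted mice, and Slc51b became -1.32 with the index and -0.027 with no filter and ran from -0.089 to 0.44. Between colon and ileum, Nr1h4 became -0.019 with the random replicate block and -0.018 with the index, and ran from -0.089 to 0.083, and Nr0b2 became 0.15 with the index and ran from -1.21 to 0.12. For VSG against ad libitum sham ileum, Slc10a2 became 0.15 without the libraries of mouse 12 and ran from -1.47 to 0.15. For VSG against weight-matched sham duodenum, Slc51b became 0.18 with the enterocyte covariate and 0.32 without the library of mouse 27, and ran from -1.20 to 0.32. Between the sham groups in duodenum, Slc51a became -0.003 and Slc51b -0.11 without that library, and they ran from -0.003 to 1.84 and from -0.109 to 1.41. The cause was not tested beyond the libraries left out. Depth limits Nr0b2 in ileum and colon and Fgf15 outside the ileum, where most libraries hold 0 counts.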
